A study of Rattus norvegicus with 35 samples.

Results

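Rnd1, Akip1, Mustn1, A3galt2, Aard, Samd12, Sbsn and Prss35 are 8 genes of the rat left ventricle that had large differences after the aorta was tied off and that stand outside the usual lists of hypertrophy genes. They were picked for the size of those differences between ligated and sham ventricles at days 1, 6 and 42 after the operation, out of 13337 genes with a symbol on an array of 22523 probes, and each is read by 1 probe. The contrast of ligated with sham arrays therefore chose them, and its values are given below as a description, without a test. Male Wistar rats had the abdominal aorta ligated, which loads the heart with pressure, or were sham operated, and RNA of the cardiac left ventricle was hybridised to Illumina BeadChip arrays. The groups were ligated day 1 (6 arrays), ligated day 6 (5 arrays), ligated day 42 (6 arrays), and the sham group of each of those days (6 arrays each), 35 arrays in all. The labels number the arrays of a group as replicates.

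A left ventricle that pumps against a raised pressure thickens its wall, and its muscle cells switch on a well-described set of stress genes, while fibroblasts lay down matrix and immune cells enter the tissue. The 8 genes belong to other families. Rnd1 is an atypical small GTPase that stays bound to GTP and acts on the actin skeleton. Akip1 is a small protein that binds the catalytic subunit of protein kinase A and has been described as a partner of NF-kB. Mustn1 is a small nuclear protein of skeletal muscle, bone and cartilage. A3galt2 is the galactosyltransferase that makes the isogloboside glycolipids from lactosylceramide. Aard and Samd12 are named for what their proteins contain, an alanine- and arginine-rich domain and a sterile alpha motif. Sbsn encodes suprabasin, a secreted protein of the upper layers of the epidermis, and Prss35 a protein of the serine protease family that lacks the usual active-site serine.

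The values are normalised intensities (background-corrected and quantile-normalised within a day) or log2 fold changes, ligated over sham, with ± standing for the standard error (SE). A probe counts as detected on an array where its detection p, against the negative control beads, is under 0.01. All arrays of a day share 1 BeadChip, so the day and the chip are confounded, and levels are compared only within a day. At days 1 and 42 ligated animals filled positions A to F and sham animals G to L, and there position and operation cannot be told apart. The upper quartile of the scanner signal averaged 254 in ligated and 219.6 in sham arrays at day 1, 279.8 in ligated and 268 in sham arrays at day 6, and 206 in ligated and 293 in sham arrays at day 42. Brightness thus moved with the operation at day 42, and with it as a covariate 3 of the 8351 probes tested that day passed the threshold, none of them a probe of the 8 genes. Nppa, the natriuretic peptide gene that marks a stressed ventricle, rose on all 3 days, by 1.39 ± 0.39 at day 1 (limma adjusted p = 0.0189), 2.86 ± 0.23 at day 6 (adjusted p = 2.64e-05) and 3.10 ± 0.66 at day 42 (adjusted p = 0.00945). Of the 8 cardiomyocyte markers 0 were called on any day, with 0, 1 and 0 at an unadjusted p under 0.05. Of the macrophage markers 3 of 8 were higher in ligated ventricles at day 1, 7 of 8 at day 6 and 0 of 7 at day 42, and of the fibroblast markers 1, 3 and 0 of 10, with 1 of 10 lower at day 42. Endothelial markers gave 1 higher and 1 lower of 5 at day 1, 0 of 4 at day 6 and 1 lower of 5 at day 42. The 2 smooth muscle markers tested went opposite ways at days 1 and 6. Tagln was called higher on both days, while Rgs5 had -0.40 ± 0.16 at day 1 (limma adjusted p = 0.0767) and -0.31 ± 0.22 at day 6 (adjusted p = 0.37). In RNA of whole tissue, fewer cells of a type and less RNA per cell cannot be told apart.

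Of the 8 genes, 7 passed the filter on detection at day 1, 8 at day 6 and 6 at day 42. With limma's moderated test and an adjusted p under 0.05, 5 of the 7 were called higher in ligated ventricles at day 1, where 13.1% of all probes tested were. At day 6 the call was made for 6 of the 8, against 5.39% of all probes, and at day 42 for 5 of the 6, against 7.30% of all probes. None was called lower. Every ligated array lay above every sham array for 4 genes at day 1 (4.63% of all probes), for 4 at day 6 (4.22%) and for 2 at day 42 (3.22%). Since the genes were chosen from these contrasts, nothing is read from the counts. The median log2 fold change of those that passed the filter was 1.25 at day 1 (1.17 with Aard at its lower bound), 1.30 at day 6 and 1.75 at day 42. These medians cover different genes, as Prss35 is left out at day 1 and both Aard and Prss35 at day 42. They are therefore not a course over time. The error within an array was small: each probe was read by 16 to 62 beads, and the standard error over beads was between 1.92% and 8.56% of the signal, with a median of 4.67%.

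**Figure D1:**
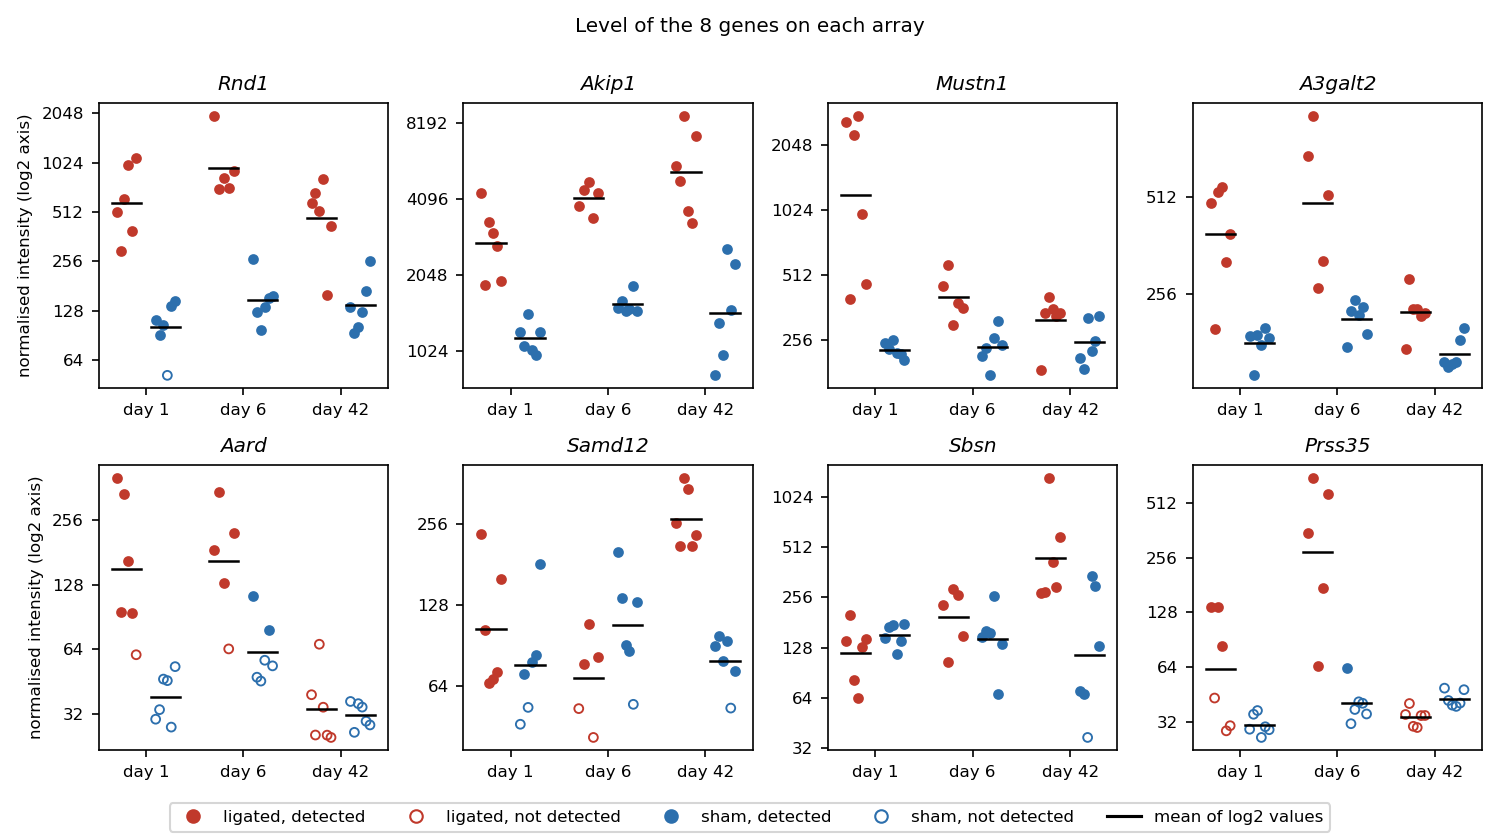
Normalised intensity (log2 axis) of the 8 genes on each of the 35 arrays, by day, with ligated arrays in red on the left of each day and sham arrays in blue on the right; open circles were not detected and the bars are means of log2 values. Rnd1 and Akip1 are separated on all 3 days apart from 1 ligated array of Rnd1 at day 42, Mustn1 spreads from 396 to 2805 among the ligated arrays of day 1, Prss35 is detected on all 5 ligated arrays only at day 6, and Samd12 and Sbsn are separated or shifted only at day 42.

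Rnd1 was higher on the ligated arrays of all 3 days. At day 1 it lay between 298 and 1093 in ligated ventricles (median 563) and between 51.8 and 147 in sham ventricles (median 109), where 1 of the 6 sham arrays did not detect it. The groups did not overlap, and the difference was 2.52 ± 0.32 on the log2 scale, or 5.73-fold, and 1.88 without background correction. Day 6 gave 1975, 709, 830.0, 721 and 909 on the 5 ligated arrays, against 98.0 to 266 on the sham arrays (median 144). Again the groups did not overlap, with a log2 fold change of 2.68 ± 0.28, and ligated replicate 1 stood apart from the other 4. Without that array the log2 fold change was 2.41, the lowest of the values with 1 array left out. By day 42 the ligated ventricles had 161 to 810.0 (median 548) and the sham ventricles 93.4 to 258 (median 130.1). Here ligated replicate 5, at 161, fell among the sham arrays while the other 5 lay above all of them, and the log2 fold change was 1.77 ± 0.34. The effect at day 42 minus that at day 6 was -0.91 ± 0.45. At day 6, where both operations lay in both sets of positions, the difference was 2.996 within positions A to F and 2.46 within G to L for Rnd1, and 1.43 and 1.38 for Akip1.

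Akip1 was higher in ligated ventricles with no overlap between the groups on any of the 3 days. It had 1878 to 4320 in ligated ventricles at day 1 (median 2840.0) and 994 to 1441 in sham ventricles (median 1148). On the 5 ligated arrays of day 6 it had 3864, 4461, 4801, 3444 and 4353, against 1476 to 1854 on the sham arrays (median 1514). At day 42 the ligated ventricles had 3313 to 8767 (median 5189) and the sham ventricles 823 to 2610.3 (median 1411). The log2 fold changes were 1.25 ± 0.19 at day 1, 1.40 ± 0.12 at day 6 and 1.85 ± 0.30 at day 42. At day 42 both groups were wider than before, with within-group SDs of 0.55 in ligated and 0.65 in sham ventricles on the log2 scale, against 0.19 in ligated and 0.13 in sham ventricles at day 6. The effect at day 42 minus that at day 1 was 0.61 ± 0.35. With brightness as a covariate the day 42 difference was 1.81 ± 0.54 for Akip1 and 1.99 ± 0.61 for Rnd1, sizes close to those above with wider errors.

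A3galt2 differed at the first 2 time points and less at the last. In ligated ventricles of day 1 it lay between 199.6 and 551 (median 442), and in sham ventricles between 143 and 200.2 (median 188). Of the 6 ligated arrays 5 lay above all sham arrays, the exception being replicate 2, and the log2 fold change was 1.12 ± 0.21. The ligated arrays of day 6 gave 686, 917, 267, 325 and 520.5, all above the sham arrays at 175 to 246 (median 224), for a log2 fold change of 1.19 ± 0.27. Both highest values belong to the 2 ligated arrays at positions A to F, which were also the brightest of the day, at 375 and 365 in upper-quartile scanner signal, and within these positions the log2 difference was 1.89 (2 ligated, 3 sham arrays), against 0.73 within positions G to L (3 ligated, 3 sham arrays). By day 42 the level was 172 to 286 in ligated ventricles (median 227) and 152 to 201 in sham ventricles (median 158), with 5 of 6 ligated arrays above all sham arrays. That difference, 0.43 ± 0.12, depended on the scaling: it was -0.08 with median scaling and 0.16 ± 0.20 with brightness as a covariate. The effect at day 42 minus that at day 6 was -0.77 ± 0.30.

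Mustn1 had its largest difference at day 1. The ligated arrays of that day fell into a high and a low set of values: replicates 1, 3 and 4 had 2622, 2278 and 2805, whereas replicates 2, 5 and 6 had 396, 981 and 464. All lay above the sham arrays, which kept within 206 to 256 (median 226), and the log2 fold change was 2.39 ± 0.45, or 5.24-fold. The 3 high arrays were also the 3 brightest ligated arrays of the day, at 308, 266 and 293, against 225, 223 and 208 for the others. On the 5 ligated arrays of day 6 Mustn1 had 456, 571, 299, 378 and 359, against 175 to 312 on the sham arrays (median 237). Here 4 of the 5 ligated arrays exceeded all sham arrays and the log2 fold change was 0.77 ± 0.18, with 1.31 within positions A to F and 0.35 within G to L. At day 42 the ligated ventricles had 185 to 405 (median 339) and the sham ventricles 187 to 329 (median 239). Those groups overlapped, at 0.35 ± 0.19, and the sign turned with median scaling (-0.18 ± 0.18) and with brightness as a covariate (-0.20 ± 0.28). The effect at day 6 minus that at day 1 was -1.62 ± 0.48, and at day 42 minus day 1 it was -2.04 ± 0.49. With brightness as a covariate the day 1 difference was 1.66. Of the 6 skeletal muscle markers with a probe, Myh2, Myh4, Myod1 and Myog were detected on no array of any day and Tnni2 on 1 sham array of day 1. At day 6, 3 of 5 ligated arrays detected Tnnt3 and 2 of 6 sham arrays did (0.17 ± 0.17, limma adjusted p = 0.541), at day 42 these were 3 of 6 and 2 of 6 (0.14 ± 0.18, adjusted p = 0.623), and at day 1 none did.

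Aard was near the detection limit in sham ventricles and above it in most ligated ventricles of the first 2 time points. At day 1 it had 60.5 to 404 in ligated ventricles (median 131, detected on 5 of 6 arrays), against 27.8 to 53.2 in sham ventricles (median 39.6, detected on none of 6). The ligated arrays all lay above the sham arrays. Against sham arrays floored at the lowest level that each detected, the ligated level was at least 2.26-fold higher. The measured log2 difference was 1.99, against 1.12 without background correction, 1.30 with brightness as a covariate and 2.58 in the series matrix. The ligated arrays of day 6 gave 185, 346, 131, 64.4 and 224, of which the fourth was not detected, and the sham arrays lay between 45.6 and 114 (median 55.3), detected on 2 of 6. The groups overlapped and the log2 fold change was 1.40 ± 0.37, with 2.01 within positions A to F and 0.99 within G to L, where 1 of 3 sham arrays of each detected it. Without background correction it was 0.78. At day 42 none of the 12 arrays detected Aard, with 24.9 to 67.7 in ligated ventricles and 26.3 to 36.6 in sham ventricles.

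Prss35 followed a narrower course. At day 1 it was detected on 3 of 6 ligated arrays, with values from 28.7 to 138 (median 63.3), and on none of 6 sham arrays, with values from 26.4 to 37.0 (median 29.7). It did not pass the detection filter that day. Day 6 gave 349, 700.2, 65.3, 175 and 571 on the 5 ligated arrays, all detected, against 31.4 to 63.7 on the sham arrays (median 39.1), of which 1 of 6 detected it. The groups did not overlap, but the lowest ligated array, replicate 3 at 65.3, was just above the highest sham array, replicate 1 at 63.7. The log2 fold change was 2.76 ± 0.49, or 6.79-fold, against sham arrays of which 5 of 6 did not detect the probe. It was 1.62 without background correction and 3.78 in the series matrix, and ranged from 2.43 to 3.28 with 1 array left out. Within positions A to F, where 1 of 3 sham arrays detected it, it was 3.55, and within G to L, where 0 of 3 did, the ligated level was at least 3.04-fold higher. By day 42 none of the 12 arrays detected Prss35. In ligated ventricles it then lay between 29.9 and 40.5, and in sham ventricles between 39.0 and 49.1.

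Macrophage markers were called higher at day 1 (3 of 8) and day 6 (7 of 8). Rnd1, Akip1, Mustn1, A3galt2 and Aard were also called on those days. At day 42 no macrophage marker was called, while Rnd1, Akip1, A3galt2, Samd12 and Sbsn were. The summed level of the 8 macrophage markers was 5410.0 to 21916 in ligated ventricles (median 10547) and 3646 to 5024 in sham ventricles (median 4631) at day 6, and 1202 to 4069 in ligated ventricles (median 3718) and 1828 to 3903 in sham ventricles (median 2545) at day 42. At day 1 it was 4587 to 7991 in ligated ventricles (median 6764) and 2540.1 to 6408 in sham ventricles (median 4614). The 10 fibroblast markers summed to 54505 to 105193 in ligated ventricles (median 57757.5) and 47088 to 66033 in sham ventricles (median 50619.8) at day 6. Their medians in ligated and sham ventricles were 59764.7 and 50256.6 at day 1, and 45187.8 and 43396.8 at day 42. The ranges overlapped on each day. Of the 5 neutrophil markers, S100a9, Mpo, Csf3r and Cxcr2 were detected on no array of any day, while S100a8 was detected on every array apart from 1 ligated array of day 42. S100a8 had 0.74 ± 0.38, 0.42 ± 0.55 and -0.19 ± 0.30 at days 1, 6 and 42 (limma adjusted p = 0.156, 0.654 and 0.687). The part of these cell types in the differences of the 8 genes was not tested.

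Samd12 differed late. At day 1 it had 65.9 to 235 in ligated ventricles (median 87.8) and 46.2 to 181 in sham ventricles (median 74.5). On the ligated arrays of day 6 it had 52.8, 77.3, 109, 41.3 and 82.2, against 54.8 to 200.3 on the sham arrays (median 111). The groups overlapped on both days, with log2 fold changes of 0.43 ± 0.36 at day 1 and -0.65 ± 0.32 at day 6. At day 42 the ligated ventricles had 212 to 379 (median 245) and the sham ventricles 53.1 to 98.2 (median 84.6), and the groups were far apart. The log2 fold change was 1.74 ± 0.18, or 3.34-fold, and stayed at 1.73 ± 0.32 with brightness as a covariate. It was 1.27 with median scaling and 1.08 without background correction. The effect at day 42 minus that at day 6 was 2.39 ± 0.36.

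Sbsn also had its largest difference at the last time point, but with more spread. At day 1 it lay between 64.0 and 201 in ligated ventricles (median 134) and between 117 and 177 in sham ventricles (median 158), for a log2 fold change of -0.37 ± 0.23. The ligated arrays of day 6 had 229, 106, 289, 266 and 149, overlapping the sham arrays at 67.6 to 259.9 (median 152), and the log2 fold change was 0.44 ± 0.32. By day 42 the ligated ventricles had 271 to 1335 (median 355) and the sham ventricles 37.0 to 342 (median 100.2). In the sham group replicates 4 and 5, at 342 and 301, reached the ligated range, so that 3 of 6 ligated arrays lay above all sham arrays. The log2 fold change was 1.93 ± 0.54, or 3.81-fold, 1.30 without background correction and 1.11 ± 0.93 with brightness as a covariate. Leaving out 1 array gave 1.60 to 2.24, and the highest ligated array, replicate 3 at 1335, was the dimmest of the day at 161 in upper-quartile scanner signal. The effect at day 42 minus that at day 1 was 2.30 ± 0.59. Sbsn is best known from the epidermis, and of the 4 keratinocyte markers with a probe Krt10, Krt14 and Ivl were detected on no array of any day and Krt1 on 1 ligated array of day 1.

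**Figure D2:**
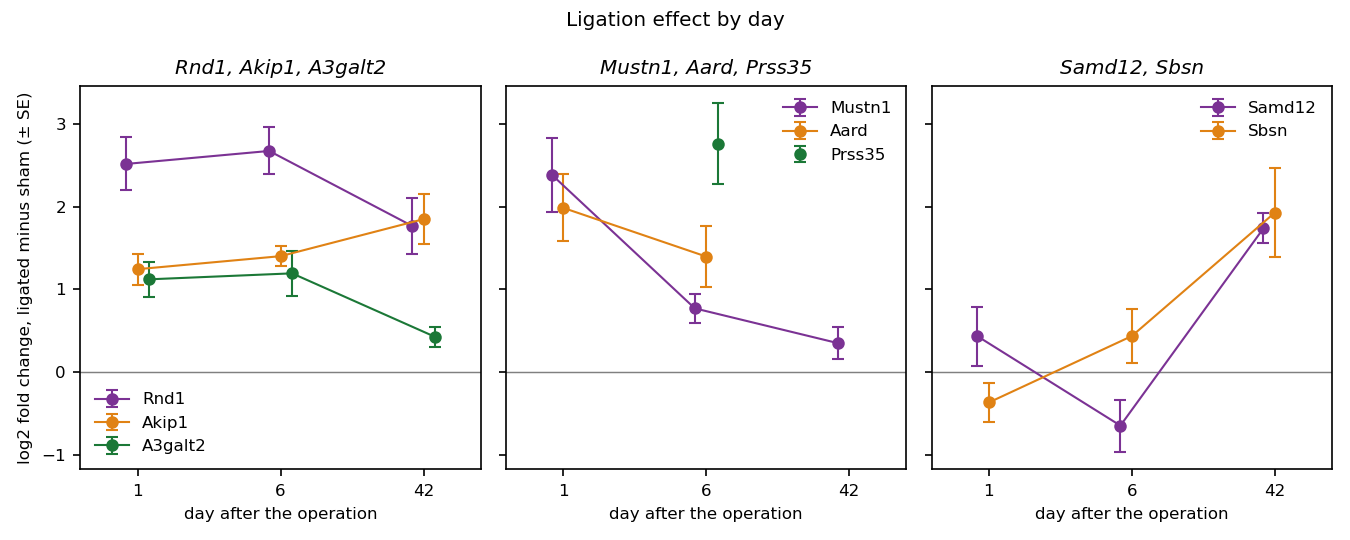
Log2 fold change of ligated over sham arrays (± SE) by day after the operation, in 3 panels. Rnd1, Akip1 and A3galt2 are above 0 on each day, Mustn1 declines to 0.35 at day 42 beside Aard and Prss35, which have no point on days when they did not pass the detection filter, and Samd12 and Sbsn reach 1.74 and 1.93 at day 42. The point of Aard at day 1 is the measured difference from sham arrays that did not detect it.

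Placed among all probes tested, Sbsn had the rise of rank 4 at day 42, Akip1 rank 6, Rnd1 rank 7 and Samd12 rank 8 of 8351. At day 1 Rnd1 had rank 13 of 8236 and Mustn1 rank 17. Aard, with only a lower bound that day, is given no rank. At day 6 Prss35 had rank 13 of 8492 and Rnd1 rank 15. Akip1, at rank 96 on day 1 and rank 90 on day 6, and A3galt2, at rank 136 and rank 132 on those days, were further down. These ranks describe how the genes came to be picked.

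The spread between arrays of 1 group was not used to choose the genes and could be tested. The 6 genes that passed the detection filter on all 3 days gave 15 pairs, and for each pair the deviations from the group means were correlated over the 35 arrays, with p-values from 100000 permutations within groups (two-sided) adjusted over the 15 pairs. The correlations lay between -0.27 and 0.65, with a median of 0.17, and 11 of 15 were positive. Mustn1 with A3galt2 was the pair that passed: Pearson's r was 0.65 (permutation p = 0.00028, adjusted p = 0.0042) and Spearman's rank correlation 0.62 (permutation p = 0.00121, adjusted p = 0.0182). Ligated arrays on which Mustn1 was high for their group thus tended to have A3galt2 high as well, with a weaker correlation among sham arrays (below). Over both operations the correlation held within the days, at r = 0.80 at day 1, 0.66 at day 6 and 0.69 at day 42. It also held without the 2 arrays farthest in Mustn1 (r = 0.63, permutation p = 0.001). With array brightness removed r was 0.61. Position was not removed, and the 2 ligated arrays of day 6 at positions A to F were the highest ligated arrays of that day in both genes. Among ligated arrays r was 0.70 and among sham arrays 0.24, and the difference between these was not tested. How often other pairs of probes correlate as strongly on these arrays was not tested either. The next pair, Akip1 with Mustn1, had r = 0.43 (permutation p = 0.0262, adjusted p = 0.197) and a rank correlation of 0.38 (permutation p = 0.0444, adjusted p = 0.229), and did not pass. Akip1 with Sbsn had r = 0.42 (permutation p = 0.0814, adjusted p = 0.236), with 0.74 at day 42 against -0.32 at day 1 and -0.52 at day 6, and did not pass either.

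**Figure D3:**
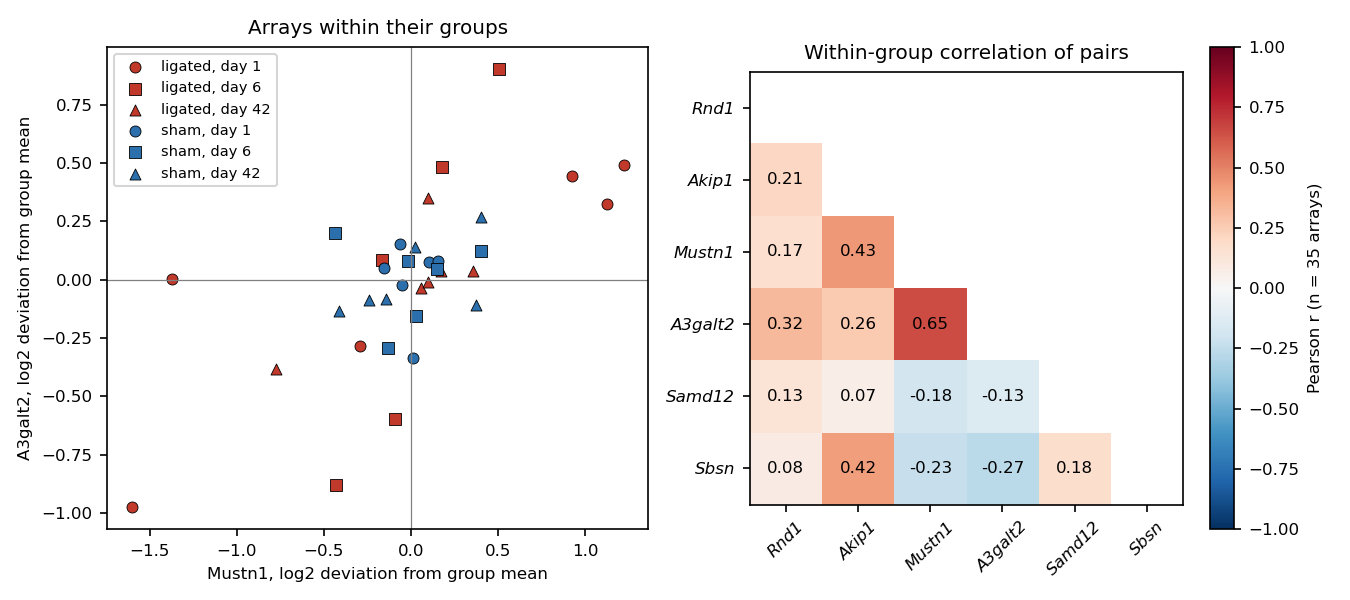
Left, the log2 deviation of Mustn1 (x axis) and A3galt2 (y axis) from the mean of their group on each of 35 arrays, ligated in red and sham in blue, with a shape per day. Right, Pearson's r of the deviations for the 15 pairs of the 6 genes, of which Mustn1 with A3galt2 (0.65) is the highest.

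The 250 bases before the annotated starts of Mustn1, A3galt2 and Sbsn are shown, as RefSeq gives them on the GRCr8 build. Mustn1 and A3galt2 were the correlated pair, and Sbsn, of the pair with a late difference, is the one with a RefSeq window. RefSeq windows matched 4 of the 8 genes by symbol (Akip1, Mustn1, A3galt2 and Sbsn, the last with 2 starts). Capitals mark a match to a motif, on either strand.
Mustn1, chr16:6079105-6079354, plus strand: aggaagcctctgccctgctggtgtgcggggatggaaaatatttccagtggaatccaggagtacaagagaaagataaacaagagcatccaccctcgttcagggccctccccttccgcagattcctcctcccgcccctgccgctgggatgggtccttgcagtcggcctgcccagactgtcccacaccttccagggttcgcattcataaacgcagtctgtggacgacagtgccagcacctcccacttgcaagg
A3galt2, chr5:146385562-146385811, plus strand: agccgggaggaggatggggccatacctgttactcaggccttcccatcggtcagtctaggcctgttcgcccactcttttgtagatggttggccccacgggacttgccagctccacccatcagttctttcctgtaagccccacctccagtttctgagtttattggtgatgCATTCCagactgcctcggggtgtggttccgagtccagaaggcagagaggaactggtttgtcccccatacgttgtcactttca
Sbsn first start, chr1:95106140-95106389, plus strand: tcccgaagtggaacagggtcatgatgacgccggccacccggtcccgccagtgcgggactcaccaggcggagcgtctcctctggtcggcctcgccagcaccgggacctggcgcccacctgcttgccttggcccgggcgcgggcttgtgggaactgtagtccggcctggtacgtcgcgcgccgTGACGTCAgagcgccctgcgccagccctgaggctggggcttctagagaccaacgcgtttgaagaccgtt
Sbsn second start, chr1:95128731-95128980, plus strand: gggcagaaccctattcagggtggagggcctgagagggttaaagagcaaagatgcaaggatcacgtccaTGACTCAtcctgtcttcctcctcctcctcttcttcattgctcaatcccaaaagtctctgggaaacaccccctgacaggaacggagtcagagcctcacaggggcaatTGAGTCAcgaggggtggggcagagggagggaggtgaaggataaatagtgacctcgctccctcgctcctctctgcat
The motifs searched in the window of 250 bases before to 50 bases after each start were AP-1 (TGANTCA), the cyclic AMP response element (TGACGTCA), the MCAT element of muscle genes (CATTCC), the TATA box (TATAAA), the CArG box, the MEF2 site and the NF-kB site. In A3galt2 the capitals are an MCAT element 82 to 77 bases before the start, a motif in 14.2% of 33469 rat promoter windows of that length. The first start of Sbsn has a cyclic AMP response element 69 to 62 bases before it (in 1.83% of windows), and the second start has an AP-1 motif 182 to 176 and again 76 to 70 bases before it (in 7.33% of windows). Mustn1 has an NF-kB site 20 to 29 bases after its start, beyond the stretch printed (in 7.51% of windows), and Akip1 has none of the motifs. No match overlapped another, and a match is a description of the letters in the window. Which start of Sbsn the probe reads was not tested.

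Each gene's course over the 3 days was set beside those of 5870 genes with a symbol that passed the filter on every day, by the root mean square difference of the 3 log2 fold changes. Closest to Rnd1 were Scn3b, a sodium channel subunit (difference 0.20), the muscle ankyrin repeat gene Ankrd23 (0.38) and the growth factor Tgfb2 (0.43). Closest to Akip1 were Ccn2, the matricellular connective tissue growth factor (0.27), the actin regulator Enah (0.42) and the collagen Col8a1 (0.51). Mustn1 was closest to Pdlim5, a protein of the Z-disc (0.20), with 2.05 at day 1, 0.75 at day 6 and 0.36 at day 42 for Pdlim5, then Plb1 (0.36) and Myc (0.40). A3galt2 had the closest partners among the 6: Fxyd5, a regulator of the sodium pump (0.084), Ptpn6, a tyrosine phosphatase of blood cells (0.10), and Pcolce, an enhancer of procollagen processing (0.15). For Samd12 they were the cofilin phosphatase Ssh2 (0.33), Riok1 (0.39) and Usp36 (0.39), and for Sbsn Vash2 (0.27), Pi16 (0.35) and Usp36 (0.46). All these values come from the same arrays, and the likeness of 3 values is a description.

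The families around 6 of the genes were read from lists made for what their genes do, 136 genes in all without the 8. The lists hold protein kinase A with its anchoring proteins and NF-kB, myogenic, cartilage and AP-1 genes, glycosphingolipid enzymes, SAM-domain genes, epidermal envelope genes, and serine proteases with serpins. At day 1, 52 were tested, of which 9 rose and 10 fell in ligated ventricles (36.5% called, against 28.8% of all probes). At day 6, 54 were tested, with 5 risen and 3 fallen (14.8%, against 11.3%), and at day 42 51 were tested, with 5 risen and 0 fallen (9.8%, against 15.0%). The median log2 fold change of the genes tested was 0.07 at day 1, 0.05 at day 6 and 0.04 at day 42. Of the named calls below 14 of 17 held at day 1, 4 of 8 at day 6 and 4 of 5 at day 42 whichever array was left out, and 11, 1 and 0 held with median scaling.

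Around protein kinase A and NF-kB, with which Akip1 is known to act, 0 of 19 tested genes rose at day 1, also at an unadjusted p under 0.05, and 6 fell. Among these were the anchoring proteins Akap6 (-0.71 ± 0.15, adjusted p = 0.00547) and Akap9 (-0.43 ± 0.12, adjusted p = 0.0155), Aifm1 of the mitochondria (-0.40 ± 0.11, adjusted p = 0.0191) and the NF-kB kinase Chuk (-0.35 ± 0.10, adjusted p = 0.0231). With median scaling none of these 4 passed (adjusted p between 0.0887 and 0.411). That scaling put the median log2 fold change of the probes tested that day at 0.20. At day 6 Akap9 (-0.44 ± 0.11, adjusted p = 0.0252) and the catalytic subunit Prkaca (-0.45 ± 0.14, adjusted p = 0.0478) fell. The call of Prkaca was lost in 9 of 11 fits with 1 array left out and that of Akap9 in 6. At day 42 Chuk rose (0.38 ± 0.12, adjusted p = 0.0447), but it had -0.05 with median scaling, where the median of the probes tested was -0.47. Rela, the NF-kB subunit, had -0.09 ± 0.16, 0.03 ± 0.12 and 0.21 ± 0.12 at days 1, 6 and 42 (adjusted p = 0.704, 0.91 and 0.238).

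Of the list around Mustn1, 3 genes could be tested on each day. The AP-1 genes Fos and Junb were higher at day 1. For Fos, 5 of 6 ligated and 0 of 6 sham arrays detected it, so it passed the filter through ligated arrays alone. It was at least 1.65-fold higher, a bound that was not tested. Its adjusted p of 0.00244 in limma is that of the measured difference from sham arrays that did not detect it. Junb rose by 1.24 ± 0.27 (adjusted p = 0.00572). Junb rose again at day 6 (1.57 ± 0.42, adjusted p = 0.0325), a call lost in 6 of 11 fits with 1 array left out, and had 0.47 ± 0.16 at day 42 (adjusted p = 0.0601). The myogenic factor Myf5 had 0.42 ± 0.15 at day 42 (adjusted p = 0.0725), when 3 of 6 ligated arrays and 2 of 6 sham arrays detected it, and was not detected on the other two days. All 3 genes tested at day 42 were higher at an unadjusted p under 0.05, and none passed in limma. The myogenic factors Myod1, Myog and Myf6, the muscle genes Pax7 and Mymk and the cartilage collagen Col2a1 were detected on no array of any day.

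Of the glycosphingolipid enzymes, the list around A3galt2, 3 of 10 tested rose at day 1 and 1 fell. St3gal2, a sialyltransferase, rose by 0.75 ± 0.11 (adjusted p = 0.000853), Ugcg, which makes the glucosylceramide that lactosylceramide is built from, by 0.58 ± 0.15 (adjusted p = 0.0121), and Gm2a, the activator protein of ganglioside breakdown, by 0.97 ± 0.26 (adjusted p = 0.0141). The sialidase Neu1 fell (-0.41 ± 0.13, adjusted p = 0.0323), with the call lost in 6 of 12 fits with 1 array left out. At day 6 Gm2a rose (0.96 ± 0.27, adjusted p = 0.0405; lost in 7 of 11 such fits), and at day 42 none of 11 passed in limma (4 at an unadjusted p under 0.05). Ggta1, the other galactosyltransferase that adds galactose in the same linkage as A3galt2, had -0.04 ± 0.13, 0.03 ± 0.17 and 0.38 ± 0.15 at days 1, 6 and 42 (adjusted p = 0.838, 0.932 and 0.104).

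SAM-domain genes showed no common direction. Samd4a, a regulator of translation, with 6 of 6 ligated and 0 of 6 sham arrays detecting it at day 1, was at least 1.55-fold higher (adjusted p = 0.00207). Samd13 fell at day 1 (-0.86 ± 0.17, adjusted p = 0.00348) and at day 6 (-0.92 ± 0.20, adjusted p = 0.0137), and Stim1, the calcium sensor of the endoplasmic reticulum, fell at day 1 (-0.44 ± 0.11, adjusted p = 0.00954). At day 42, when Samd12 was high, the scaffold gene Cnksr3 was the 1 of 7 that rose (0.71 ± 0.14, adjusted p = 0.00699; 0.19 with median scaling). Of the epidermal genes listed beside Sbsn, 12 had a probe and 2 could be tested at day 1. The transglutaminase Tgm1, which cross-links the cornified envelope, rose at day 1 (1.68 ± 0.34, adjusted p = 0.00386) and day 6 (2.46 ± 0.47, adjusted p = 0.00849). At day 42, the day of the largest difference in Sbsn, Tgm1 did not pass the detection filter. Sprr1a, an envelope precursor, had -0.09 ± 0.10, -0.08 ± 0.17 and 0.12 ± 0.13 at days 1, 6 and 42 (adjusted p = 0.548, 0.797 and 0.569).

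Serine proteases and serpins, listed beside Prss35, gave 2 rises and 1 fall among 11 tested at day 1. Prss23 rose at day 1 (0.93 ± 0.18, adjusted p = 0.00279) and day 6 (0.81 ± 0.12, adjusted p = 0.0029), and Corin, which cleaves the atrial natriuretic peptide precursor, fell at day 1 (-0.89 ± 0.16, adjusted p = 0.00232). Serpinb1a, an inhibitor of neutrophil proteases, rose at day 6 (1.73 ± 0.36, adjusted p = 0.0121). Serpine2, an inhibitor of thrombin, rose at day 1 (0.58 ± 0.19, adjusted p = 0.0358; lost in 6 of 12 fits with 1 array left out) and at day 42 (0.91 ± 0.21, adjusted p = 0.0162). Prss8 (0.55 ± 0.11, adjusted p = 0.00862) and Serpinf1 (0.55 ± 0.13, adjusted p = 0.0164) also rose at day 42, by 0.06 and 0.03 with median scaling.

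**Figure D4:**
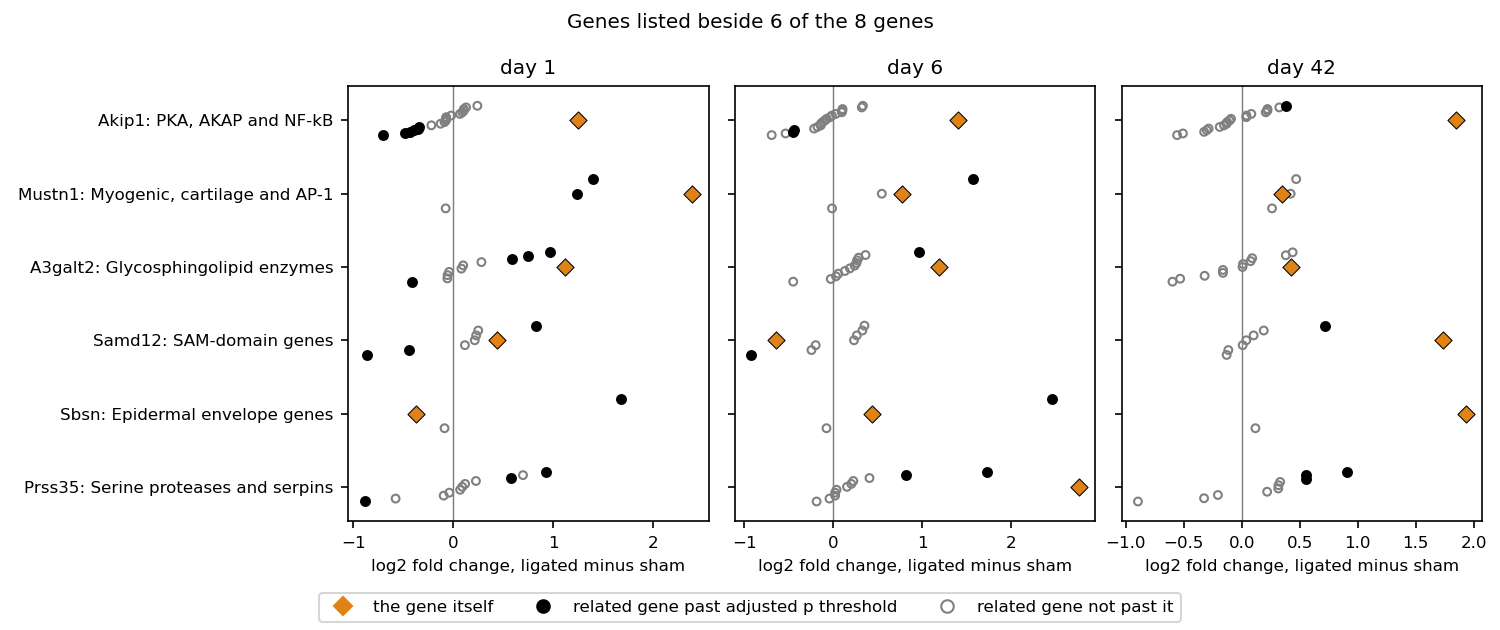
Log2 fold change of ligated over sham arrays at days 1, 6 and 42 for the genes of 6 lists (circles, filled where the adjusted p is under 0.05) and for the gene each list was made around (orange diamonds, shown where it passed the detection filter). Akip1 stands to the right of all genes of its list on each day. It was chosen for its difference in this contrast and the list genes were not, so nothing is read from that position.

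On the chromosomes, Aard and Samd12 are near neighbours on chromosome 7 of the RefSeq order (GRCr8), with 5 protein-coding genes between them, but Aard was high at days 1 and 6 and Samd12 at day 42. The nearest tested genes on either side of the 8 lay 1 to 52 protein-coding genes away and numbered 29 without the 8. They gave 5 rises and 2 falls among 26 at day 1, 2 rises and 1 fall among 27 at day 6, and 1 rise among 27 at day 42. Those are 26.9%, 11.1% and 3.7% of the neighbours, against 28.8%, 11.3% and 15.0% of all probes, shares near or below the background. The largest of these differences were in Hamp, the iron hormone hepcidin, and Tnfrsf11b, the decoy receptor osteoprotegerin. Hamp, 10 protein-coding genes along from Sbsn, rose at day 1 (2.67 ± 0.45, adjusted p = 0.0017) and day 6 (2.22 ± 0.46, adjusted p = 0.0114). Tnfrsf11b, 2 genes along from Samd12, rose at day 1 (1.37 ± 0.38, adjusted p = 0.0178) and day 6 (2.31 ± 0.64, adjusted p = 0.0352). Neither was called at day 42: Hamp had 0.91 ± 0.36 (adjusted p = 0.0917) and Tnfrsf11b did not pass the detection filter. The calcium channel subunit Cacnb3, 2 genes from Rnd1, rose at day 1 (0.64 ± 0.12, adjusted p = 0.00291) and had 0.20 ± 0.19 at day 6 (adjusted p = 0.506) and 0.36 ± 0.13 at day 42 (adjusted p = 0.0736).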

How the data were processed

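The 8 genes, the lists of related genes and markers, and the tests were chosen with earlier results of these data known. RNA of 35 left ventricles was read on Illumina BeadChips, with BeadStudio 3.3 and GenomeStudio (version not stated) named in the submitters' processing notes. The deposited tables of each day hold, per the file headers, 4 columns per array: a bead-averaged scanner intensity, a p-value for detection above negative controls, the number of beads and their standard error. This intensity was neither normalised nor background-subtracted by the authors, judged from its values. The deposited series matrix holds intensity with the authors' own background subtraction and normalisation, whose method is not given in the sources used here. It served as an alternative, floored at log2 4. In the table of day 6, 4 columns, of 1 array that matches no sample, were not used.

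Intensities were corrected with limma 3.58.1 in R 4.3.3 (the normexp model at offset 16, with the controls derived from detection p-values). Quantile normalisation within the day and log2 followed. Tested were probes that at least 5 arrays of a day detected at p under 0.01. Groups came from the sample labels. Within a day, ligated were set against sham arrays with lmFit and eBayes, with Benjamini-Hochberg adjustment across the probes tested (threshold 0.05). For the related genes, differences between days came from 1 fit of the 6 groups over 35 arrays. For the chosen genes, the log2 fold changes of the separate fits of each day were subtracted. The SE of such a difference is the square root of the summed squares of both SEs. Where no sham array detected a probe, its fold is a lower bound against sham arrays floored at the lowest level that each detected. Where a gene has several probes, the one with the highest mean level stands for it. Probe symbols came from the platform annotation, gene order and promoter windows from RefSeq (GRCr8). Bead arrays give no count depth: each array detected 32.8% to 40.3% of its probes, with a median of 30 to 42 beads per probe. The number of arrays limits the precision, and p-values measure the spread between these arrays only. The steps were tested on simulated data. The list of genes related to Rnd1 is not reported here.

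Named are all 8 genes, up to 4 called related genes with the smallest p per list and day, the 2 nearest tested genes on each side of each gene, of which the largest are given, the 3 genes most like each in course, and the markers. Rela, Ggta1 and Sprr1a were named after their values were seen, as the closest relatives or partners. Alternatives tried were leaving out each array, eBayes with trend and robust, brightness as a covariate, a replicate block, a position block at day 6, detection on every array or no detection filter, the series matrix, median scaling, intensities without background correction, and 1 normalisation over all days.

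Arrays with the same replicate number were not treated as pairs: the correlation of their deviations from the group means lay between -0.14 and 0.19 at day 1, -0.27 and 0.24 at day 6, and -0.20 and 0.34 at day 42. Whether the numbers pair the animals in some way cannot be told from these values.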

Additional observations from a re-analysis of the deposited data

Results flagged for a closer look

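Of 44 groups of arrays checked for a value far from the others, 3 stood out, and chance flags about 1 in 20. Rnd1 was highest on ligated replicate 1 of day 6, at 1975 against 909 for the next array, a gap of 0.758 of the range of the group on the log2 scale. Mustn1 was lowest on ligated replicate 1 of day 42, at 185 against 329.9 for the next, a gap of 0.737 of the range. A3galt2 was lowest on sham replicate 2 of day 1, at 143 against 177 for the next, a gap of 0.64 of the range.

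Among the related genes the ligation effect differed between days by the test of the difference itself in limma. Chuk (0.73, adjusted p = 0.017) and Prss8 (0.64, adjusted p = 0.0472) had higher effects at day 42 than at day 1, and St3gal2 a lower one (-0.67, adjusted p = 0.0238). Against day 6, the effect at day 42 was lower for Neu1 (-0.82, adjusted p = 0.0217), Tgm1 (-1.85, adjusted p = 0.0471) and Serpinb1a (-1.81, adjusted p = 0.0169). At day 42 only 2 of 6 ligated and 1 of 6 sham arrays detected Tgm1, and 0 of 6 ligated and 1 of 6 sham arrays detected Serpinb1a, so their values there are near background. Brightness differed between the operations at day 42, and its part in these differences was not tested.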

How the results depend on the processing

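Of 433 fold changes of the 8 genes under the alternatives, 423 differed from the reported one by less than 1 within-group SD, 9 by more, and 1 called value changed sign (A3galt2 at day 42, -0.0797 with median scaling). Among the 9 was Mustn1 at day 42, not called, which turned to -0.18 with median scaling and -0.20 with brightness as a covariate. By fold, 11 of the 433 moved by over 1.5 times: without background correction Rnd1 (1.88) and Aard (1.12) at day 1, Aard (0.78) and Prss35 (1.62) at day 6, and Samd12 (1.08) and Sbsn (1.30) at day 42; in the series matrix Aard at day 1 (2.58) and Prss35 at day 6 (3.78); and with brightness as a covariate Mustn1 (1.66) and Aard (1.30) at day 1 and Sbsn (1.11) at day 42. Median scaling equalises the median level over all probes of an array, tested or not. The median log2 fold change of the probes tested was then 0.20, -0.08 and -0.47 at days 1, 6 and 42. Under median scaling higher calls made up 83.9%, 37.9% and 1.72% of all calls, against 45.7%, 47.8% and 48.7% as reported. With it, day 6 gave 132 called probes (958 as reported), 1 related gene and 3 of the 8 genes (Rnd1, Akip1 and Prss35), and day 42 gave 4710 probes (1252 as reported) and 27 related genes. With brightness as a covariate, day 1 gave 1199 probes (2368 as reported) and 9 related genes, and day 42 gave 3 probes, 0 related genes and 0 of the 8. Without the detection filter day 6 gave 562 probes and 5 related genes. Requiring detection on every array left 3 of the 8 called at day 1 and 3 at day 42, since fewer were tested (4 on each day). Replicate numbers were not taken to pair the arrays, and a replicate block gave 315 probes, 3 related genes and 3 of the 8 at day 6 and 3 of the 8 at day 42. With a single array left out, the fits gave 1609 to 2964 called probes at day 1, 535 to 1199 at day 6 and 666 to 1774 at day 42, related genes numbering 15 to 23, 4 to 8 and 4 to 9, and 5 to 5, 5 to 6 and 3 to 6 of the 8. In these fits the call of Aard at day 6 was lost in 7 of 11, those of Sbsn (without ligated replicate 3 or 6 or sham replicate 1, 2 or 3) and A3galt2 at day 42 in 5 and 9 of 12, and Mustn1 was called at day 42 without ligated replicate 1. The number of correlated pairs was 1, with 4 under median scaling, 1 to 3 with a day left out (3 without day 42) and 0 among sham arrays alone. The cause of these changes was not tested, apart from the smaller number tested.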
